A study of Homo sapiens with 6 samples.

Results

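The genes described here are 49 genes that act in G2 and mitosis, the last stages of the cell division cycle. They were selected by symbol from a table of 55765 genes, all 49 were found under their current symbols, and all 49 passed the filter on low counts. They were sorted by role into 7 groups, namely mitotic entry (12 genes), the spindle checkpoint and anaphase (8), kinetochore and centromere (7), the chromosomal passenger complex (3), spindle assembly (7), cytokinesis (6) and the mitotic chromosome (6). The cells were OCI-AML2, a human line established from acute myeloid leukaemia, grown per the labels from single-cell clones. One group of 3 libraries came from cells given 100 nM MRT199665 for 48 h, which the labels describe as acting on the MARK kinases as an inhibitor. The other group of 3 libraries came from cells given vehicle alone for the same 48 h. No genotype differed between the groups. Whether the 3 libraries of each group had cultures of their own is not stated in the labels. The p-values therefore measure only how far these libraries spread, and that spread may be technical.

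Cells prepare for division in G2, when cyclins A and B bind the kinase CDK1 and CDC25 phosphatases switch it on. Chromosomes are then compacted by condensins and attached to the spindle at kinetochores, and the spindle checkpoint holds the anaphase-promoting complex in check until all of them are attached. Transcripts of many of these genes accumulate together in G2, under promoters that are bound by MuvB complexes at an element called CHR and by NF-Y at CCAAT boxes. In a culture of leukaemia cells that divide out of step, the level of such a transcript follows both the share of cells in G2 and mitosis and the amount per cell, and bulk counts cannot tell these apart.

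Total counts ranged from 5871097 to 14308650 per library, and the 49 genes together had between 25335 and 63926 counts. The limit that a count of 0 allows, taken as 3 counts, lay between 0.210 and 0.511 CPM, for counting error only. CPM, the unit of all levels here, makes counts comparable between libraries of different depth. MRT199665 replicate 2 and vehicle replicate 2 stood at the ends of the first principal component of all tested genes (46.75% of the variance), along which the groups were mixed. Among 10 myeloid identity genes, PTPRC had at least 2528 counts and CSF3R at least 929 in every library. ANPEP had only 7 to 21 counts per library and LYZ 12 to 47, and CEBPA had 0 in all 6. The summed level of the 10 genes was 693 to 731 CPM with vehicle and 775 to 837 CPM with MRT199665. PTPRC alone gave 350 to 431 CPM of it over the 6 libraries. T, B and NK cell markers summed to 13.2 to 15.3 and 14.3 to 17.4 CPM, erythroid and megakaryocyte markers to 0.750 to 1.26 and 1.71 to 4.09 CPM, and epithelial and stromal markers to at most 1.56 CPM in any library. CD2, MS4A1, HBB, HBA1, PF4 and KRT18 were at 0 in all 6 libraries. The part of these differences in the results below was not tested.

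The promoters of the members share letters that the selection did not use. The RefSeq promoter table (GRCh38.p14, 250 bases before to 50 after the start) held 42 of the 49 genes. AURKA, BIRC5, BUB3, FOXM1, TPX2, TTK and UBE2C were not matched. The CHR core TTTGAA, read on both strands, stood in 31 of the 42 windows (73.8%), against 15.2% of all 35116 promoters of the same length. CCAAT, also read on both strands, stood in 32 (76.2%), against 34.6% of all promoters, and 25 members (59.5%, against 5.9%) held both. Matches may share bases with each other, as in CCAATTGG, where CCAAT meets its own reverse complement. The 150 bases before the start are shown for 5 genes, 5′ to 3′ on the gene's strand, with matches to either motif in capitals. HMMR, CKS2 and PTTG1 are shown because they had the most negative log2 fold changes among the members, and CCNB1 and CCNB2 because these cyclin B genes differed in how they stood between the groups.
HMMR: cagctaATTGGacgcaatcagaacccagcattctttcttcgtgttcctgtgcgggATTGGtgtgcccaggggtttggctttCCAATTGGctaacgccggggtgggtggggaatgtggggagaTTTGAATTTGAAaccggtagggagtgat
CKS2: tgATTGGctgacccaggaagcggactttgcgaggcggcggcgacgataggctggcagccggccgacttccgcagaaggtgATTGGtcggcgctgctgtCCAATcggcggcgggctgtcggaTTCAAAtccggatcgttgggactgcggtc
PTTG1: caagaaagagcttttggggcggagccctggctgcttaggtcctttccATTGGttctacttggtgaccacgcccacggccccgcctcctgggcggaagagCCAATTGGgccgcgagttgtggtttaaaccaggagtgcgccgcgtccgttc
CCNB1: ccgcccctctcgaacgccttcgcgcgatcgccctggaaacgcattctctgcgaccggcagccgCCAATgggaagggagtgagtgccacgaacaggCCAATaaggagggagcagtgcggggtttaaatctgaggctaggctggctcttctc
CCNB2: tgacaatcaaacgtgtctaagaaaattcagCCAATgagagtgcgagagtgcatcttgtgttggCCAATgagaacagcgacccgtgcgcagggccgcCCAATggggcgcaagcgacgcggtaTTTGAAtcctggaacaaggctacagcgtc
These windows lie at chr5:163460482-163460631 (HMMR), chr9:89311045-89311194 (CKS2), chr5:160421705-160421854 (PTTG1), chr5:69167000-69167149 (CCNB1) and chr15:59104996-59105145 (CCNB2), all on the plus strand. HMMR holds 2 copies of TTTGAA side by side, and CCNB2 has 3 CCAAT boxes in front of 1 TTTGAA. In CCNB1 and PTTG1 the letters TTTGAA are absent from the whole 300-base window, from which nothing follows about the factors that bind there. The 31 members with TTTGAA had a median log2 fold change of -0.33 and the 11 without it -0.38. This difference was not tested, and the 7 unmatched genes are in neither value.

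With MRT199665, transcripts of most G2 and mitosis genes stood at lower levels than with vehicle, by small amounts. The log2 fold change was negative for 43 of the 49 members (87.8%), against 49.1% of all 13053 tested genes, and its median was -0.33, against 0.01 over all tested genes. In 27 members (55.1%) every MRT199665 library lay below every vehicle library, against 10.8% of all tested genes, and in 0 members did every MRT199665 library lie above, against 11.4% of all tested genes. No single member passed the test, with 0 of 49 called by the edgeR quasi-likelihood test at an adjusted p under 0.05, where 1.25% of all tested genes were called, 0.398% as lower and 0.85% as higher. At an unadjusted p under 0.05 there were 22 members, all negative (44.9%, against 7.11% of all tested genes in that direction and 7.64% in the other). DESeq2 called 3 members, where it called 2.87% of the 12356 genes it gave an adjusted p (FOXM1 had none). Limma-voom called 0 members and 1.2% of 13053 genes, and edgeR without the filter on low counts 6 members and 2.28% of 28230 genes. The members were chosen with earlier results of these data known, so these shares are a description and carry no test.

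**Figure D1:**
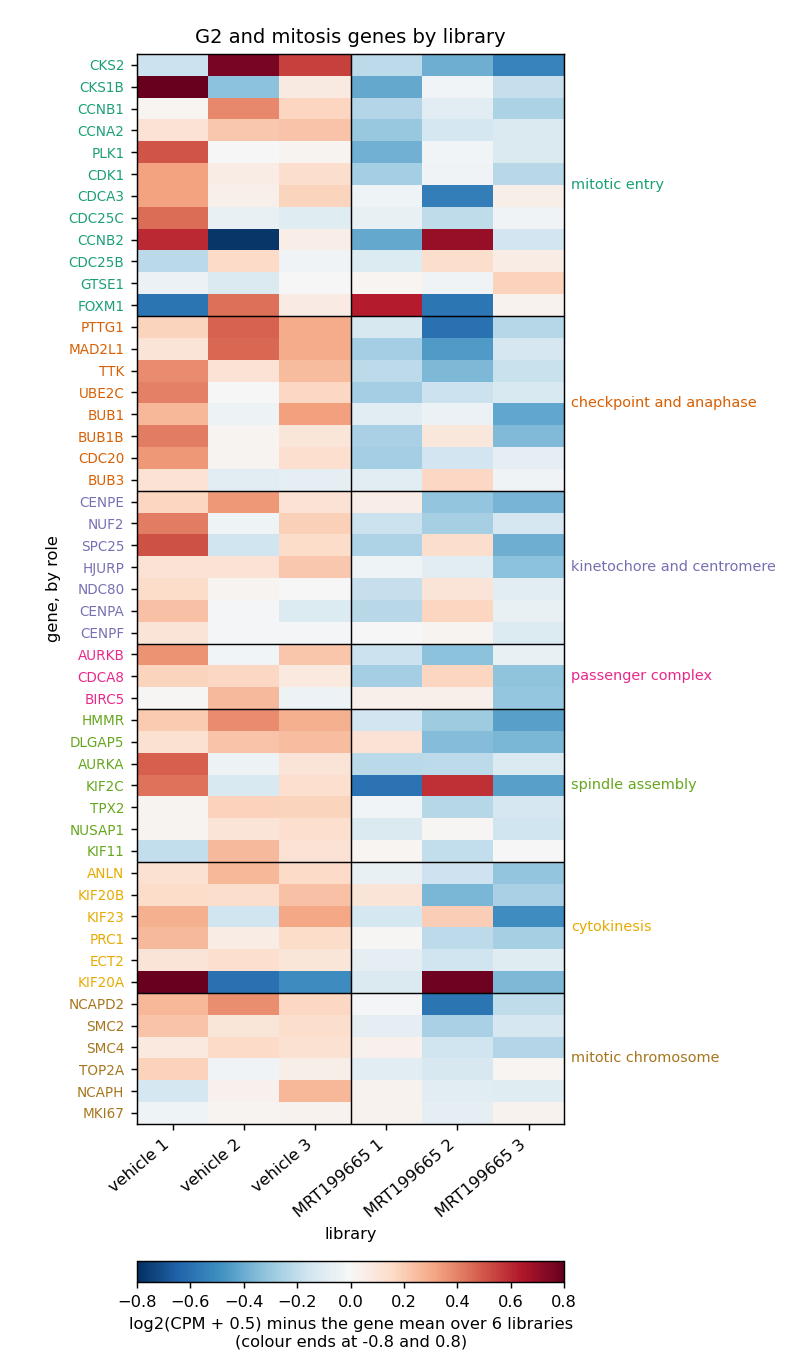
Level of each of the 49 genes (rows, by role) in each library (columns), as log2(CPM + 0.5) minus the gene's mean over the 6 libraries; red is above and blue below that mean. In 38 rows at least 2 vehicle columns are red and at least 2 MRT199665 columns are blue, and in 15 rows all 6 columns follow this, while CCNB2, KIF20A and KIF2C are red in vehicle replicate 1 and MRT199665 replicate 2.

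Summed over the 49 genes, these transcripts took 0.539%, 0.469% and 0.515% of the counts with vehicle and 0.431%, 0.432% and 0.437% with MRT199665, by replicate. The groups did not overlap, and the treated libraries were close to each other. TOP2A alone made up 37.5% to 42.1% of the summed counts. Without it the shares were 0.328%, 0.293% and 0.318% with vehicle and 0.259%, 0.261% and 0.253% with MRT199665. Vehicle replicate 1 was the highest library for 21 of the 49 members (42.9%, against 17.5% of all tested genes) and an MRT199665 library the highest for 6. Within groups the members had a median SD of 0.168 on the log2 CPM scale, against 0.234 over all tested genes, not matched for expression level. Some members varied far more, with FOXM1, KIF20A and CCNB2 at the 97.3, 97.0 and 94.7 percentiles of all tested genes.

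Genes of the spindle checkpoint and of anaphase onset had the most negative median of the 7 role groups, at -0.39, and 7 of the 8 had a negative log2 fold change. In 6 of the 8 the groups did not overlap. For this count and those of the role groups below, the share over all tested genes was 10.8% in the lower direction. MAD2L1 encodes the checkpoint protein MAD2, which binds and inhibits CDC20 while kinetochores are unattached. Here and below, values are listed by replicate, from 1 to 3. MAD2L1 stood at 45.4, 58.2 and 51.8 CPM with vehicle and at 34.7, 30.6 and 38.4 CPM with MRT199665. All treated libraries lay below all vehicle libraries, and its log2 fold change came to -0.58 ± 0.14 (SE, adjusted p = 0.104, n = 3 per group). TTK, the kinase MPS1 that starts checkpoint signalling at kinetochores, gave 49.7, 41.4 and 45.5 CPM with vehicle and 32.8, 29.6 and 33.7 CPM with MRT199665. Its groups were again apart, and its log2 fold change came to -0.50 ± 0.12 (SE, adjusted p = 0.105).

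PTTG1 is securin, which holds separase inactive until anaphase. It stood at 145, 178 and 157 CPM with vehicle and at 117, 84.5 and 109 CPM with MRT199665, where replicate 2 was the lowest library. The mean was 160 ± 16.7 CPM with vehicle and 104 ± 17.0 CPM with MRT199665 (SD, n = 3 per group), and the log2 fold change came to -0.63 ± 0.15 (SE, adjusted p = 0.0995). The retrogene copies PTTG2 and PTTG3P, near-identical to PTTG1 in sequence, had 2 and 1 counts over the 6 libraries against 8943 for PTTG1. UBE2C, the ubiquitin-conjugating enzyme that works with the anaphase-promoting complex, was measured at 163, 124 and 138 CPM with vehicle and 102, 109 and 113 CPM with MRT199665. The groups did not overlap, although vehicle replicate 1 stood well above the other vehicle libraries, and the log2 fold change was -0.39 ± 0.13 (SE, adjusted p = 0.204). CDC20, the activator of the anaphase-promoting complex that the checkpoint restrains, had a log2 fold change of -0.34 ± 0.13 (SE). BUB1, a checkpoint kinase, and BUB1B, which encodes the checkpoint protein BUBR1, both had -0.38, and only the BUB1B groups overlapped. BUB3, which brings BUB1 and BUBR1 to kinetochores, differed from these in sign, with 135, 118 and 119 CPM with vehicle and 117, 140 and 123 CPM with MRT199665. Its groups overlapped fully, and its log2 fold change of 0.03 had a 95% interval from -0.24 to 0.30.

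**Figure D2:**
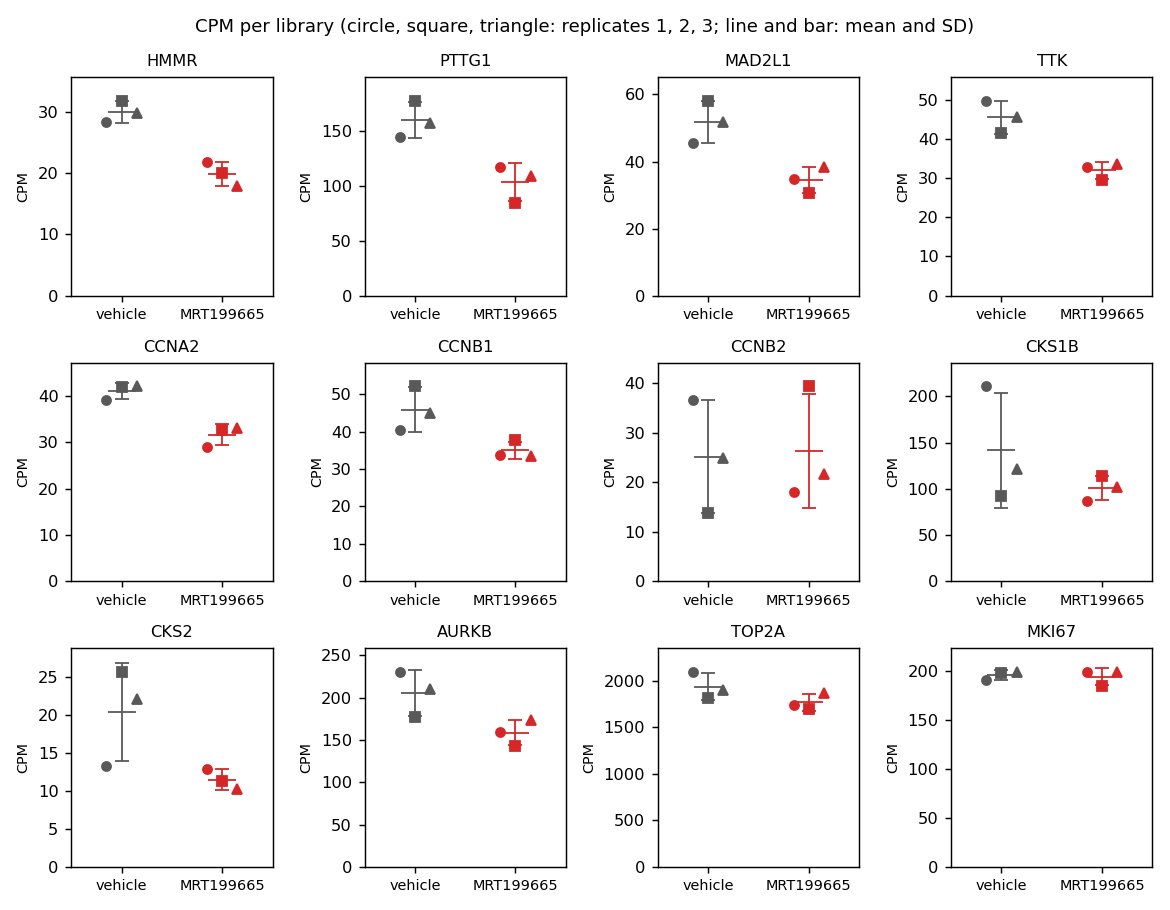
CPM of 12 of the genes (vertical axes, each from 0) in the 3 vehicle libraries (grey) and the 3 MRT199665 libraries (red), with mean and SD. HMMR, PTTG1, MAD2L1, TTK, CCNA2, CCNB1, CKS2 and AURKB have no overlap between groups, while CCNB2, CKS1B, TOP2A and MKI67 overlap.

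The 12 genes of mitotic entry were the most mixed group. Their median log2 fold change was -0.35, 8 of the 12 were negative, and the groups were apart in 5. CCNA2 (cyclin A2) was at 39.1, 41.9 and 42.1 CPM with vehicle and 29.0, 32.6 and 33.2 CPM with MRT199665. These libraries lay close together within each group, and its log2 fold change came to -0.38 ± 0.12 (SE, adjusted p = 0.179). CCNB1 (cyclin B1), the main partner of CDK1 at mitotic entry, was at 40.4, 52.2 and 45.1 CPM with vehicle and 33.8, 37.7 and 33.5 CPM with MRT199665. The lowest vehicle library still exceeded the highest treated library, and the log2 fold change was -0.39 ± 0.13 (SE, adjusted p = 0.218). CDK1 itself, the kinase both cyclins activate, had -0.36 ± 0.13 (SE) and no overlap.

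CCNB2 (cyclin B2), whose product binds the same kinase, did not follow CCNB1. It gave 36.6, 13.8 and 24.9 CPM with vehicle and 18.0, 39.4 and 21.5 CPM with MRT199665. Vehicle replicate 1 and MRT199665 replicate 2 were high and vehicle replicate 2 was low, so the spread within groups was far larger than the difference between them. The log2 fold change was 0.04 ± 0.38 (SE, 95% interval -0.82 to 0.90), and it was -0.65 without MRT199665 replicate 2 and vehicle replicate 2 together. The within-group SD of CCNB2 on the log2 scale, 0.648, lay at the 94.7th percentile of all tested genes.

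The paired small CDK-binding proteins CKS1B and CKS2 varied in opposite ways among the vehicle libraries. CKS1B was at 211, 92.1 and 122 CPM with vehicle and 87.2, 114 and 102 CPM with MRT199665. Vehicle replicate 1 stood alone above the rest, and without it the log2 fold change of CKS1B went from -0.49 to -0.09. CKS2 was at 13.3, 25.7 and 22.2 CPM with vehicle and 12.9, 11.3 and 10.2 CPM with MRT199665. Here vehicle replicate 1 was the lowest vehicle library and barely above the treated ones. CKS2 had the most negative log2 fold change of the 49, at -0.83 ± 0.24 (SE, adjusted p = 0.160), and -1.06 without vehicle replicate 1, where it was called (adjusted p = 0.0245, over the alternatives 0.00102 to 0.511).

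PLK1, the kinase that promotes entry and spindle formation, had a log2 fold change of -0.37 ± 0.17 (SE), and CDCA3, an adaptor for degradation of the CDK1 inhibitor WEE1, -0.34 ± 0.17 (SE). Of the CDC25 phosphatases, CDC25C had -0.22 ± 0.18 (SE). CDC25B was at 86.9, 113 and 99.0 CPM with vehicle and 93.5, 111 and 105 CPM with MRT199665, overlapping throughout, with a log2 fold change of 0.05 ± 0.13 (SE, 95% interval -0.24 to 0.35). GTSE1, a microtubule-binding protein of G2, was at 17.9, 17.0 and 18.4 CPM with vehicle and 18.7, 18.1 and 21.1 CPM with MRT199665. The GTSE1 groups overlapped narrowly, at 0.12 ± 0.13 (SE). FOXM1, a transcription factor of G2 genes, was near the detection limit, with 2 to 19 counts per library. Its levels were 0.336, 1.20 and 0.814 CPM with vehicle and 1.43, 0.338 and 0.780 CPM with MRT199665, which leaves a 95% interval of the log2 fold change from -1.03 to 1.53. In GENCODE 29 the FOXM1 gene overlaps RHNO1 and ITFG2 on the opposite strand, which had 4127 and 1615 counts in all against 58 for FOXM1. The strand setting of the counting is not given, so how reads were assigned in such overlaps is not known.

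**Figure D3:**
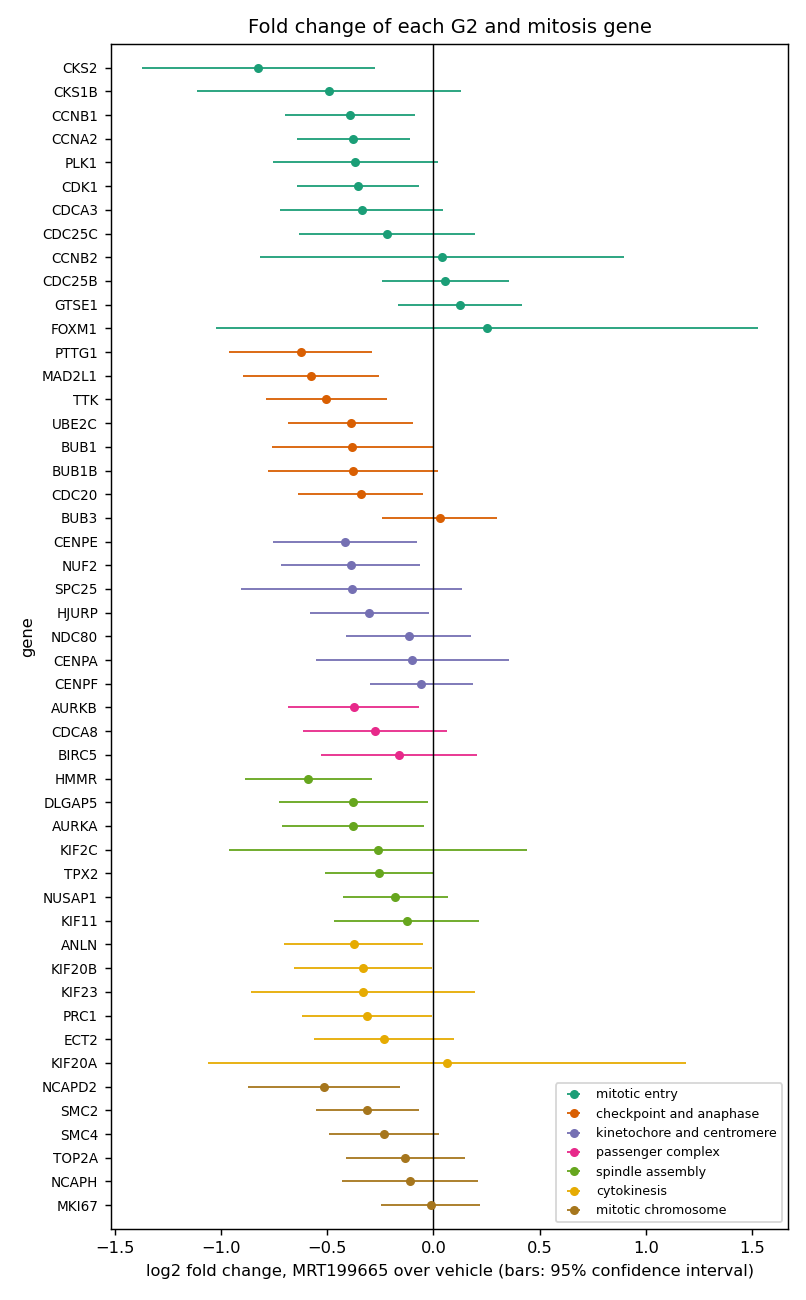
Log2 fold change of each gene (horizontal axis, MRT199665 over vehicle) with its 95% confidence interval, by role (colour). The intervals of 22 genes lie wholly below 0 and none lies wholly above, and the intervals of FOXM1, KIF20A and CCNB2 are the widest.

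All 7 kinetochore and centromere genes had negative log2 fold changes, with a median of -0.30, and 3 had no overlap between groups. CENPE, the kinesin that carries chromosomes to the spindle equator, was at 44.2, 50.1 and 42.6 CPM with vehicle and 40.7, 31.4 and 30.2 CPM with MRT199665. MRT199665 replicate 1 lay just under the lowest vehicle library, and the log2 fold change was -0.42 ± 0.15 (SE, adjusted p = 0.237). The microtubule-binding Ndc80 complex was uneven in its members' values, with NUF2 at -0.39 ± 0.14, SPC25 at -0.39 ± 0.23 and NDC80 at -0.12 ± 0.13 (log2 fold change, SE). Its subunit SPC24, listed with the other mitotic genes below, had a log2 fold change of 0.001 ± 0.16 (SE, 95% interval -0.37 to 0.37). SPC24 was at 29.2, 22.4 and 26.6 CPM with vehicle and 23.0, 30.9 and 24.8 CPM with MRT199665, with overlap. HJURP, the chaperone that deposits the centromeric histone CENPA, was at -0.30 ± 0.12 (SE), and CENPA itself, with 38 to 80 counts per library, at -0.10 ± 0.20 (SE). CENPF, a large kinetochore protein, gave 304, 281 and 281 CPM with vehicle and 284, 287 and 262 CPM with MRT199665. These groups overlapped, with a log2 fold change of -0.06 (95% interval -0.30 to 0.19).

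The chromosomal passenger complex corrects faulty attachments and later guides cytokinesis, and its 3 genes in this role group were all negative. AURKB, its kinase, was at 231, 177 and 210 CPM with vehicle and 160, 143 and 173 CPM with MRT199665. The groups were apart by a narrow gap between vehicle replicate 2 and MRT199665 replicate 3, and the log2 fold change was -0.38 ± 0.14 (SE, adjusted p = 0.244). The complex members CDCA8 (borealin) and BIRC5 (survivin) had -0.28 ± 0.15 and -0.16 ± 0.16 (SE) and overlapping groups. The subunit INCENP, listed with the other mitotic genes below, had -0.27 ± 0.16 (SE), also with overlap. In CDCA8 the overlap came from MRT199665 replicate 2, at 55.6 CPM, where replicates 1 and 3 had 40.8 and 39.5 CPM.

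Among the 7 spindle assembly genes, all were negative, the median was -0.26, and 5 had no overlap. HMMR, a microtubule-binding protein of the spindle poles, had the lowest p of the 49 members. It was at 28.3, 31.8 and 29.7 CPM with vehicle and 21.8, 19.9 and 17.9 CPM with MRT199665. The gap between groups exceeded the range within either, and the log2 fold change was -0.59 ± 0.13 (SE, adjusted p = 0.0840, over the alternatives 0.0273 to 0.430). TPX2, which activates the kinase AURKA on the spindle, gave 218, 245 and 244 CPM with vehicle and 212, 184 and 196 CPM with MRT199665. Its treated libraries were all lower, MRT199665 replicate 1 only slightly, and its log2 fold change came to -0.26 ± 0.11 (SE, adjusted p = 0.344). AURKA had -0.38 ± 0.15 (SE), with vehicle replicate 1, at 87.7 CPM, above the other vehicle libraries at 61.3 and 67.7 CPM. DLGAP5, a spindle protein that stabilises kinetochore microtubules, had -0.38 ± 0.15 (SE), and NUSAP1, which bundles microtubules near chromosomes, -0.18 ± 0.11 (SE).

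The motor proteins of the spindle are encoded by 6 members, CENPE and 5 KIF genes, of which 5 were negative, 2 had no overlap and 0 were called (edgeR, 2 at an unadjusted p under 0.05, DESeq2 and limma-voom 0). Over all tested genes 49.1% were negative and 10.8% had no overlap in the lower direction. There edgeR called 1.25% and gave 7.11% an unadjusted p under 0.05 as lower, while DESeq2 called 2.87% and limma-voom 1.2%. The median log2 fold change of the 6 motor genes was -0.30. KIF11, which pushes spindle poles apart, had -0.13 ± 0.15 (SE). KIF2C, which takes apart microtubule ends, had -0.26 ± 0.31 (SE) and one treated library, replicate 2 at 26.5 CPM, above all others.

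The 6 cytokinesis genes had a median of -0.32, with 5 negative and 4 without overlap. ANLN (anillin), a scaffold of the contractile ring, was at 12.9, 14.3 and 13.2 CPM with vehicle and 11.3, 10.5 and 9.43 CPM with MRT199665. These small but separate groups had a log2 fold change that came to -0.38 ± 0.14 (SE, adjusted p = 0.272). KIF20B, a kinesin needed to complete cytokinesis, was at 55.4, 55.1 and 58.9 CPM with vehicle and 53.8, 38.7 and 41.7 CPM with MRT199665. MRT199665 replicate 1 lay near the vehicle libraries, and the log2 fold change was -0.33 ± 0.14 (SE, adjusted p = 0.331). PRC1, which bundles the central spindle, had -0.31 ± 0.13 (SE), and ECT2, which switches on RhoA at the division plane, -0.23 ± 0.15 (SE). KIF23, a motor of the central spindle, had -0.33 ± 0.23 (SE) with overlap. KIF20A, the motor that moves the passenger complex to the central spindle, repeated the library pattern of CCNB2, with 5.96, 1.97 and 2.14 CPM with vehicle and 2.94, 5.92 and 2.41 CPM with MRT199665. Its highest libraries were vehicle replicate 1 and MRT199665 replicate 2, and its log2 fold change of 0.06 turned to -0.63 without MRT199665 replicate 2 and vehicle replicate 2 together. KIF20A had 223 counts in all, and overlaps BRD8 (2301 counts) and CDC23 (349 counts) on the opposite strand in GENCODE 29.

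Genes that shape the mitotic chromosome were all negative but had the least negative median of the 7 groups, at -0.18. NCAPD2, a subunit of condensin, was at 53.5, 57.5 and 49.8 CPM with vehicle and 44.0, 29.4 and 38.4 CPM with MRT199665. Replicate 2 was the lowest of the treated libraries, which were all below vehicle, and the log2 fold change was -0.52 ± 0.16 (SE, adjusted p = 0.174). NCAPD2 overlaps MRPL51 (5171 counts against 3096) on the opposite strand. SMC2, a core condensin ATPase, was at 113, 103 and 106 CPM with vehicle and 91.6, 80.5 and 88.0 CPM with MRT199665. Both groups were tight and apart, and its log2 fold change came to -0.31 ± 0.11 (SE, adjusted p = 0.222). Its partner SMC4 had -0.23 ± 0.11 (SE), and NCAPH, the subunit that joins the ATPase heads, -0.11 ± 0.14 (SE).

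TOP2A and MKI67, widely used markers of dividing cells, stood among the members with values close to 0. TOP2A, which untangles sister DNA, was at 2098, 1813 and 1906 CPM with vehicle and 1745, 1692 and 1865 CPM with MRT199665. The groups overlapped, at a log2 fold change of -0.13 ± 0.12 (SE, 95% interval -0.41 to 0.15). MKI67, which coats mitotic chromosomes, gave 190, 198 and 199 CPM with vehicle and 199, 184 and 199 CPM with MRT199665. Its means were 196 ± 4.78 and 194 ± 8.46 CPM (SD, n = 3 per group), with a log2 fold change of -0.01 and a 95% interval from -0.25 to 0.22. Whether MKI67 differed in its fold change from genes such as MAD2L1 was not tested.

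**Figure D4:**
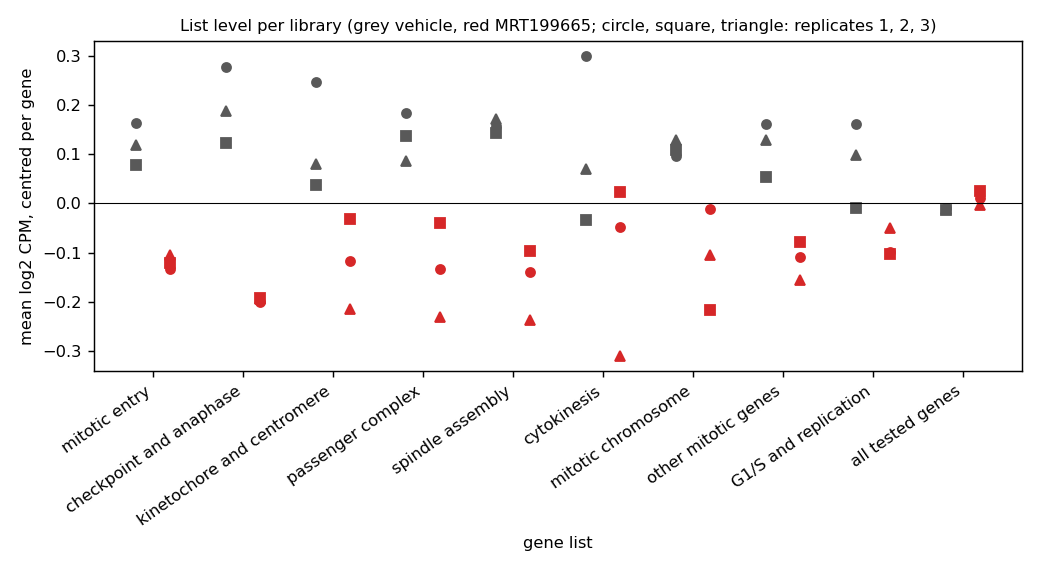
Mean log2 CPM, centred per gene (vertical axis), of each role group, of 2 other cell cycle lists and of all tested genes (horizontal axis) in each library (grey vehicle, red MRT199665; circle, square and triangle for replicates 1, 2 and 3). In mitotic entry, checkpoint and anaphase, kinetochore and centromere, passenger complex, spindle assembly and mitotic chromosome the 3 MRT199665 libraries lie below the 3 vehicle libraries, and in cytokinesis they overlap.

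By library, the mean of the 49 members (log2 CPM, centred per gene) was 0.203, 0.0826 and 0.126 with vehicle and -0.118, -0.106 and -0.187 with MRT199665. The mean of the checkpoint and anaphase genes was even across treated libraries, at -0.201, -0.193 and -0.194. Its single genes were less even, with MRT199665 replicate 2 the lowest library for PTTG1 and the highest for BUB3. For cytokinesis genes the treated libraries spread from -0.311 in replicate 3 to 0.0229 in replicate 2, and vehicle replicate 2 was at -0.0337. GC content of the last 500 bases of transcripts, a feature that can move with library preparation, had a median of 37.6% in the members and 42.0% over the 11734 tested genes with a value. After removal of the trend of fold change with GC, the median of the members was -0.30 and the 43 genes negative before were negative after it.

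Mitotic genes outside the 49 showed values of similar sign. Of 66 further mitotic genes in a list, 4 of them found under older symbols, 64 were tested. A negative log2 fold change was found for 56 (87.5%, against 49.1% of all tested genes), with a median of -0.22. In 22 (34.4%, against 10.8% of all tested genes) all MRT199665 libraries lay below all vehicle libraries. None was called by edgeR (0 of 64, against 1.25% of all tested genes). At an unadjusted p under 0.05 it gave 18 (28.1%, against 7.11% of all tested genes in that direction). DESeq2 called 1 (2.87% of all genes with an adjusted p) and limma-voom 0 (1.2% of all tested genes). The lowest p were those of CENPW, a kinetochore protein that binds centromeric DNA (log2 fold change -0.52 ± 0.11, SE, adjusted p = 0.0630), PSRC1, a spindle protein (-0.62 ± 0.16), and NCAPG, a condensin subunit (-0.53 ± 0.14). CENPW stood at 90.8, 81.9 and 81.0 CPM with vehicle and 58.4, 56.5 and 61.4 CPM with MRT199665, with no overlap.

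**Figure D5:**
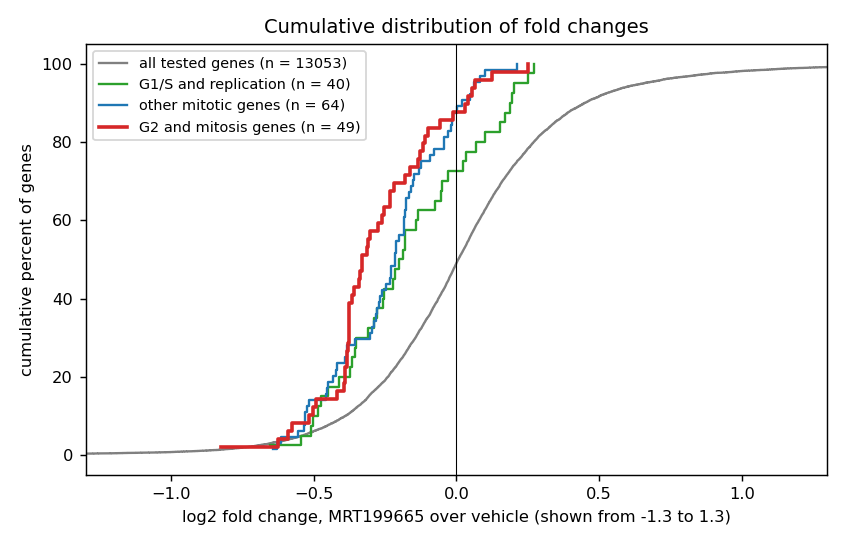
Cumulative percent of genes (vertical axis) by log2 fold change (horizontal axis) for the 49 G2 and mitosis genes, 64 other mitotic genes, 40 genes of G1/S and replication and all 13053 tested genes. At 0, 87.8% of the G2 and mitosis genes, 87.5% of the other mitotic genes and 72.5% of the G1/S genes are already counted, against 49.1% of all tested genes.

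The stage before, entry into and passage through DNA replication, was represented by 40 genes. Of these 29 (72.5%, against 49.1% of all tested genes) were negative, and the median was -0.19. No overlap in the lower direction was found for 12 (30.0%, against 10.8% of all tested genes). None was called by edgeR, against 1.25% of all tested genes. An unadjusted p under 0.05 was found for 9 (22.5%, against 7.11% of all tested genes in that direction). The lowest p were those of ORC1 (-0.65 ± 0.14, SE), CDT1 (-0.48 ± 0.13) and RFC3 (-0.45 ± 0.14), which load the replication machinery or its clamp. The difference between this list and the 49 members was not tested. A further list held 19 direct or indirect regulators of cell cycle genes, among them MuvB subunits, MYBL2, E2F and RB family genes and CDKN1A. Of these 18 were tested, 13 were negative and the median was -0.07. Among the regulators, E2F2 was at 0.61 ± 0.17 (SE, adjusted p = 0.140) with all treated libraries above vehicle. LIN9, a MuvB subunit, was at -1.17 ± 0.35 (SE, adjusted p = 0.171) from a level of 3.39 ± 1.21 CPM with vehicle (SD, n = 3). CDKN1A, the CDK inhibitor p21, had -0.29 ± 0.13 (SE).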

How the data were processed

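Gene counts of 6 OCI-AML2 libraries were analysed, 3 per group. Per the labels' protocols the libraries were made with a Lexogen kit for sequencing from the 3′ ends of messenger RNA. The submitters' processing notes name the hg19 build and, as tools, STAR 2.4, HTSeq 0.6.1 and DESeq2. For the annotation, strand setting and read filters, the sources used here give nothing. The deposited values are whole-number counts per gene symbol, not normalized by the authors.

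All genes were fitted together with edgeR 4.0.16 (R 4.3.3; glmQLFit and glmQLFTest, TMM scaling, filterByExpr with a minimum count of 10 and total of 15, group as the only term). A gene was called at an adjusted p under 0.05 (Benjamini-Hochberg over 13053 tested genes, two-sided). CPM used totals scaled by TMM. The SE was taken as the absolute log2 fold change over the square root of F, and 95% intervals used the fit's total degrees of freedom. The script was tested on simulated data. Other scalings and filters, DESeq2 1.42.0, limma-voom (limma 3.58.1), the replicate number as a block and leaving out libraries were tried as alternatives. The newer quasi-dispersion of edgeR and removal of a GC trend (lowess, span 0.3) were added after seeing the data. The members and lists were chosen with earlier results of these data known. The naming rule gave every library's value for the 10 members with the lowest p, the member with the lowest p and the one with the highest mean CPM of each role group, and members with a positive log2 fold change. For other lists it named any called gene and the 3 genes with the lowest p. INCENP and SPC24 were named besides, as subunits of complexes described here. Promoter sequences are from RefSeq (GRCh38.p14). GENCODE 29 served for transcript GC and names of overlapping genes.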

Additional observations from a re-analysis of the deposited data

How the results depend on the processing

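FOXM1 had 58 counts in all, so small differences were not detectable in it at this depth. Small changes could be missed in the other members too. In simulated counts with changes set in genes picked at random, the fit called 7.46% of 1.5-fold changes. It called 50.7% of 2-fold and 92.4% of 4-fold changes there. The rates need not hold for the members, whose median within-group SD was 0.168 against 0.234 over all tested genes. The median log2 fold change of the 49 genes stayed negative in each of 17 alternatives, and 43 or more of the members tested were negative in each. Leaving out 1 library in turn gave medians between -0.36 (without vehicle replicate 2) and -0.25 (without vehicle replicate 1), 43 to 46 negative members and 0 to 1 called members (CKS2, without vehicle replicate 1). For the other mitotic genes these medians ranged from -0.28 to -0.21, with 0 called. Without a filter on low counts edgeR called 6 members (CKS1B, CKS2, HMMR, MAD2L1, NCAPD2 and PTTG1) and 3 other mitotic genes (CENPH, CENPW and KIF14), and DESeq2 called 3 members (HMMR, MAD2L1 and PTTG1) and 1 other mitotic gene (CENPW), and the cause was not tested. Over all genes the calls were 163 of 13053 in the reported fit, 644 of 28230 without the filter and 355 of 12356 with DESeq2. Log2 fold changes near 0 changed sign when libraries were left out, and the cause was not tested. With 1 library left out in turn these ranged from -0.13 (without vehicle replicate 1) to 0.49 for FOXM1, from -0.036 (without vehicle replicate 1) to 0.14 for CDC25B, from -0.049 (without MRT199665 replicate 2) to 0.094 for BUB3, from -0.34 (without MRT199665 replicate 2) to 0.78 for KIF20A and from -0.35 (without MRT199665 replicate 2) to 0.41 for CCNB2. FOXM1 did not pass the low-count filter without vehicle replicate 2 and without MRT199665 replicate 1, so its range leaves these out. Over the 13 alternatives that gave FOXM1 a value, it ranged from -0.13 to 0.97. Without MRT199665 replicate 2 and vehicle replicate 2 together, BUB3 was at -0.087, KIF20A at -0.63 and CCNB2 at -0.65. Same-numbered libraries did not deviate together (correlations over all tested genes -0.547, -0.467 and 0.018 for replicates 1, 2 and 3), and 0 of 3 correlated best with their own number. Deviations were taken from group means of 3 libraries, so these correlations depend on each other and are not separate evidence. With the replicate number as a block 0 members and 0 other mitotic genes were called, with medians of -0.33 and -0.22, and calls over all genes went from 163 to 5 lower and 7 higher.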

Other observations

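The library pattern of CCNB2 and KIF20A, high in vehicle replicate 1 and MRT199665 replicate 2, was also seen in DSN1, a kinetochore protein among the other mitotic genes, chosen here after its values were seen. DSN1 was at 38.8, 15.5 and 21.2 CPM with vehicle and at 20.9, 34.0 and 24.4 CPM with MRT199665, by replicate from 1 to 3. The pattern was not particular to mitotic genes. FEN1, of the G1/S list, was at 66.6, 18.1 and 27.2 CPM with vehicle and 24.2, 75.2 and 37.8 CPM with MRT199665. Over all tested genes, vehicle replicate 1 deviated together with MRT199665 replicate 2 (correlation 0.482). Vehicle replicate 2 did so with MRT199665 replicate 1 (0.53), and the cause was not tested. Both correlations use deviations from group means of 3 libraries, so they depend on each other.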
